A study of Mus musculus with 4 samples.

Results

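Genes that move sodium, chloride, bicarbonate and protons across membranes were examined in the ureter of adult male mice. Of 18193 genes with a named probe set on the array, 69 belong to the epithelial sodium channel, the Na,K-ATPase, the SLC4, SLC9, SLC12 and SLC26 transporter families, the vacuolar proton pump (V-ATPase) or the CLC family. They were taken by gene symbol, with earlier results of these data known, and are covered by 144 of the 45037 probe sets tested. By role they are 3 sodium channel genes, 5 Na,K-ATPase genes, 8 SLC12, 7 SLC9, 9 SLC4 and 10 SLC26 genes, 20 V-ATPase genes and 7 CLC genes. Another 15 genes of these families in the RefSeq gene table are not analysed here. The genes covered hold 1 catalytic subunit of the Na,K-ATPase (Atp1a4) and 2 plasma membrane CLC channels, so the counts for these groups describe few of their members.

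The 4 samples form 1 group. Each is an adult ureter (Theiler stage 28) of a male on the FVB/N background that carries SMGA/EGFP, a transgene in which EGFP reports smooth muscle gamma actin (Actg2). Transgenic males were mated to FVB/N females, and the fluorescent tube was dissected between kidney and bladder, so muscle, lining and connective tissue came in the same sample. All samples carry the reporter, no untreated or non-transgenic group was measured, and the labels call the samples unpooled without saying that each came from its own animal. The p-values thus rest on the spread between these samples, which may be technical. Replicates 1 to 4 are numbered without any order.

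The ureter is lined by urothelium, an epithelium that keeps urine apart from the tissue, and wrapped in smooth muscle. In many epithelia the Na,K-ATPase drives sodium out at the basolateral side, sodium enters through channels, exchangers or cotransporters, and chloride and bicarbonate follow through exchangers and channels. The V-ATPase pumps protons into lysosomes, endosomes and secretory vesicles in nearly all cells, and into the lumen in specialised cells such as the intercalated cells of the kidney. Intracellular CLC proteins exchange chloride for protons in the same vesicles.

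Levels are log2(intensity + 16) of the gene's brightest probe set, and no level is set against that of another probe set. Statements that a gene lies over or below the threshold in a sample are about this probe set. Each array's threshold for background was taken at the 95th percentile of chemosensory receptor probe sets, whose genes are not thought to be active in this tissue. It lay at 7.23, 6.98, 7.57 and 7.36 in replicates 1 to 4. The mean distance of a probe set to these thresholds was tested with limma, one-sided, and a gene is called above background where at least 1 probe set had an adjusted p under 0.05 (Benjamini-Hochberg over all probe sets tested). All 5 smooth muscle markers and 4 of 6 urothelium markers were above background. Acta2, the smooth muscle alpha actin, had 14.07 to 15.49, and Upk1b, a uroplakin of the urothelium, had 14.36 to 15.73. The urothelium markers Upk3a (4.55, 6.38, 14.91 and 7.03) and Krt20 (7.09, 6.31, 11.69 and 6.07) lay over the threshold in replicate 3 only. Actg2, the gene of the reporter, had 11.08 to 13.30. None of 7 markers of the kidney nephron was above background, though Aqp2, the water channel of the collecting duct, lay over the threshold in 3 of 4 samples, with 6.55, 7.24, 8.46 and 8.03 (adjusted p = 0.485). The samples also differed in markers of other tissues. Replicate 3 had all 7 skeletal muscle markers over its threshold, while the other samples had 0 to 2. Summed liver markers were high in replicates 1 and 3, and those of fibroblasts were lowest in replicate 3. Of 4 seminal vesicle and prostate markers all lay over the threshold in replicates 1 and 2, 2 in replicate 3, where Pbsn had 15.41, and 1 in replicate 4. The 3' to 5' signal ratio of Actb, often read for RNA integrity, was 8.231, 19.8, 5.269 and 4.426, and that of Gapdh was 34.35, 36.94, 31.62 and 18.77. Replicate 2 stands apart in the former and lies near replicates 1 and 3 in the latter. All samples had gone through 2 rounds of amplification, and what the ratios owe to it or to integrity was not tested.

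Across all roles, 40 of the 69 transport genes (58.0%) were above background, beside 57.9% of all named genes. Of their 144 probe sets 67 were, beside 41.0% of all probe sets tested. The share of the whole set was thus near that of the array at large, while the role groups ran from 2 of 10 to 3 of 3. All 3 sodium channel genes, 16 of 20 V-ATPase genes and 5 of 7 CLC genes were above background, against 2 of 10 SLC26 genes, 2 of 5 Na,K-ATPase genes and 4 of 9 SLC4 genes. SLC12 and SLC9 genes passed in 4 of 8 and 4 of 7 cases. In single samples 48, 45, 46 and 49 of the 69 genes lay over the array's own threshold in replicates 1 to 4 (65.2% to 71.0%), beside 67.0%, 68.6%, 67.4% and 65.9% of all named genes.

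**Figure D1:**
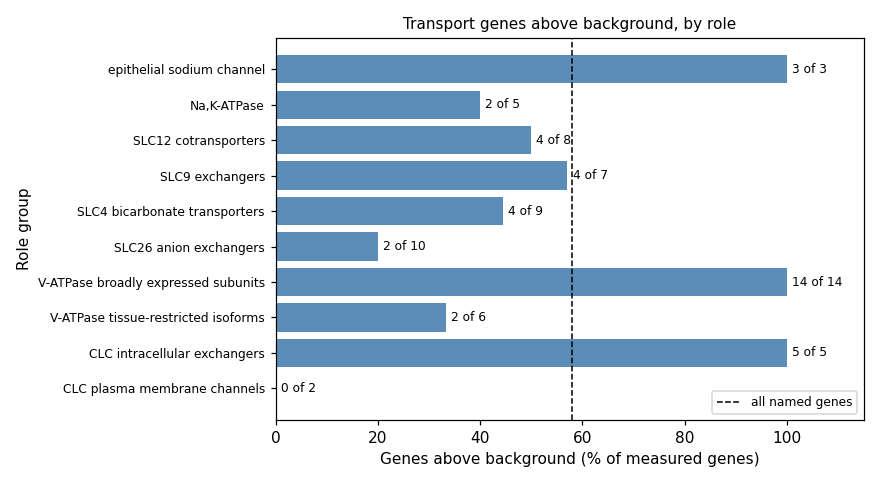
Share of measured genes above background in each role group (bars, percent, with the count at each bar), with the V-ATPase and CLC genes parted by isoform; the dashed line is the share of all named genes, 57.9%. The sodium channel, the V-ATPase subunits counted as broadly expressed and the intracellular CLC exchangers passed with all 3, 14 and 5 genes. The CLC plasma membrane channels passed with 0 of 2.

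A short sequence that was not used to choose the genes recurs in promoters of some V-ATPase subunits and intracellular CLC exchangers. CACGTG is the core of the element bound by TFEB and related factors, which switch on lysosomal genes. RefSeq promoter windows (GRCm38.p6, 250 bases before to 50 after each start) were found for 52 of the 69 genes. Of the V-ATPase subunits counted as broadly expressed and the intracellular CLC exchangers, 14 genes have windows, 18 in all. Of these windows 7 hold CACGTG (38.9%), beside 7.15% of all 32851 promoter windows. The longer palindrome TCACGTGA, which contains CACGTG, lies in 5 of these 18 windows (27.8%) and in 0.974% of all windows. In windows of all named genes above background the shares are 9.99% and 1.89%. The 5 windows with the longer form belong to Atp6v0d1, Atp6v0e, Atp6v1a, Clcn6 and Clcn7. In the 48 windows of the other transport genes CACGTG occurs in 7 (14.6%) and the longer form in 0. Over those of them that are above background, CACGTG occurs in 4 of 18 windows (22.2%). Both Slc12a7 windows are among them, overlap and hold the same site, so it is counted more than once, also among the 48. The 48 also include 6 windows of the tissue-restricted V-ATPase isoforms, of which 0 hold CACGTG. Broad and restricted isoforms were parted by hand with their levels known. CACGTG and the longer form read the same on either strand. The letters are a description of the window and do not show that a factor binds there. To let the motif be seen in place, 3 windows that hold the longer form and that of Atp6v0a4, a kidney isoform not above background here, are printed with CACGTG in capitals.
Clcn7 (chr17:25133141-25133440, plus strand): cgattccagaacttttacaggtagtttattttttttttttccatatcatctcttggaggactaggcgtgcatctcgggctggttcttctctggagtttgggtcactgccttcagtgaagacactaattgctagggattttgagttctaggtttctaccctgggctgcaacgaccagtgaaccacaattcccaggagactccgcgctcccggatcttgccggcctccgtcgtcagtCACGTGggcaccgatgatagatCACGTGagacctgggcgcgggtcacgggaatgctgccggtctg
Atp6v0d1 (chr8:105566015-105566314, minus strand): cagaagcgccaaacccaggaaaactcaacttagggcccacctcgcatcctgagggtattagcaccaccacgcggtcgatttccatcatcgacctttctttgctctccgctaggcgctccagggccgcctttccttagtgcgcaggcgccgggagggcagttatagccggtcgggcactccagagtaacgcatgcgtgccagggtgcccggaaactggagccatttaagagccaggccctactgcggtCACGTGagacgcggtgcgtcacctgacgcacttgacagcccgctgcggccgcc
Atp6v0e (chr17:26676146-26676445, plus strand): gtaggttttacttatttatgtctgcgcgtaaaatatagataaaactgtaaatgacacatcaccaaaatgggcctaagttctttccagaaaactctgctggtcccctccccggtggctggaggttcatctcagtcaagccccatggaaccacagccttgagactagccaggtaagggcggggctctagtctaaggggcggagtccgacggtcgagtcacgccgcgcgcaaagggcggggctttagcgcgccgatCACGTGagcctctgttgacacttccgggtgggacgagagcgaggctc
Atp6v0a4 (chr6:38124537-38124836, minus strand): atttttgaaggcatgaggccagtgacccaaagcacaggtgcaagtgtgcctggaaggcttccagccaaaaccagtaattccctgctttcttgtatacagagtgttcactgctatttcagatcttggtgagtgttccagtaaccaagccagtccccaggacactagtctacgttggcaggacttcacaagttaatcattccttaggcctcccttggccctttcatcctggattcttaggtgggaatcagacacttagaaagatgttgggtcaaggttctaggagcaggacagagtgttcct

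Promoters of transport genes above background were also richer in the CG dinucleotide. Their 36 windows held a median of 19.5 CG, and the 30 windows of genes not above background held 6.0. The same difference runs through the array, with 21.0 for named genes above background and 7.0 for those not above it, so it is not particular to transport genes. The printed windows of Clcn7, Atp6v0d1, Atp6v0e and Atp6v0a4 hold 17, 26, 20 and 1 CG. A second window of Clcn7, which is above background, also holds 1.

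The epithelial sodium channel (ENaC), the amiloride-sensitive entry path for sodium in tight epithelia, was present with all 3 subunits, and the subunits differed in how far they varied. Scnn1a, the alpha subunit that carries the channel's core function, had levels of 10.06, 10.59, 10.63 and 10.40 in replicates 1 to 4 (mean 10.42 ± 0.26, SD, n = 4; adjusted p = 3.85e-06, limma). All samples lay well over their thresholds and within 0.57 log2 units of each other. Scnn1b, the beta subunit, had 9.02, 7.79, 9.87 and 9.77 (9.11 ± 0.96; adjusted p = 0.001). Scnn1g, the gamma subunit, had 8.33, 6.79, 11.43 and 9.81 (9.09 ± 1.99; adjusted p = 0.0215), with replicate 2 below its threshold and replicate 3 highest. All 3 subunits were thus highest in replicate 3, and beta and gamma were lowest in replicate 2, while alpha was lowest in replicate 1. The call of Scnn1g was lost without replicate 3 (adjusted p = 0.0686), without replicate 4 (0.0804) and at the 99th percentile (0.0616).

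Of the 6 urothelium markers, Upk1a and Upk2 were likewise lowest in replicate 2 and highest in replicate 3, Upk1b and Upk3a were lowest in replicate 1, and Krt5 and Krt20 in replicate 4. Krt5 was highest in replicate 2 and the others in replicate 3. The summed intensity of the 6 urothelium markers was 42026, 67551, 110910 and 49224, with 4, 4, 6 and 4 markers over the threshold. The 5 smooth muscle markers were all over the threshold in every sample, with sums of 21968, 63961, 45012 and 26025. Those of exocrine glands, which also express the channel, summed to 23631, 38440, 105883 and 25696. The brightest of these were Lyz1, with 14.43, 14.74, 14.71 and 13.65, and Pip, with 5.30, 13.33, 16.16 and 13.45. Pip was below the threshold in replicate 1, so the sum need not follow gland content. The part of these cell types in the channel's levels was not tested. In whole tissue fewer cells of a type and less RNA per cell cannot be told apart.

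Most of the measured regulators of the channel were expressed. Of 10 such genes 9 were above background (90.0%), beside 57.9% of all named genes. Nr3c2, the mineralocorticoid receptor, had 11.80, 11.59, 10.90 and 11.70 (11.50 ± 0.41; adjusted p = 1.4e-06). Sgk1, the kinase that aldosterone induces and that keeps the channel at the surface, had 16.07, 15.84, 15.87 and 15.49 (15.82 ± 0.24; adjusted p = 1.14e-08). The exception was Hsd11b2, the enzyme that shields the mineralocorticoid receptor from glucocorticoids, with 7.66, 6.90, 8.64 and 6.08 (adjusted p = 0.928). It lay over the threshold in 2 of 4 samples. The other genes of the list, which include the channel-cleaving proteases Prss8, St14 and Furin and the ubiquitin ligase Nedd4l, had adjusted p values from 6.45e-08 to 0.000261.

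The Na,K-ATPase was seen through its beta subunits, which take the catalytic subunit to the membrane. Atp1b1, the beta subunit of most epithelia, had 16.03, 15.91, 15.81 and 15.41 (15.79 ± 0.27; adjusted p for its best probe set 1.14e-08), and 4 of its 5 probe sets were above background. Atp1b3, a broadly expressed beta subunit, had 13.80, 14.55, 14.31 and 13.73 (14.10 ± 0.40; adjusted p = 4.46e-08). Both were steady, with all samples within 0.82 log2 units. Atp1b2, the beta subunit of glia and muscle, had 6.96, 6.37, 6.56 and 7.61, and only replicate 4 lay over the threshold. Atp1b4, a muscle protein of this family, had 4.08, 5.32, 7.34 and 4.98. It stayed below the threshold in every sample and was highest in replicate 3, the sample with the skeletal muscle markers. Atp1a4, the catalytic subunit of sperm, had 4.28, 4.29, 4.64 and 4.83, below the threshold throughout.

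FXYD proteins, small partners that tune the pump, were above background in 4 of 7 cases (57.1%), near the 57.9% of all named genes. Fxyd1, that of heart and skeletal muscle, had 7.92, 7.97, 7.95 and 6.61 and was not above background (adjusted p = 0.436), nor was Fxyd2, the gamma subunit of the kidney pump, with 8.13, 6.95, 8.89 and 8.07 (adjusted p = 0.0711). Fxyd3 had 13.74, 13.71, 14.42 and 13.96 (13.96 ± 0.33; adjusted p = 1.55e-08). The others above background were Fxyd4, known from the collecting duct, Fxyd5 and Fxyd6.

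Among the SLC12 cotransporters, which carry chloride with sodium or potassium, the sodium-coupled member above background was Slc12a2. This gene encodes NKCC1, which loads cells with chloride, and had 16.36, 16.17, 16.50 and 15.76 (16.20 ± 0.32; adjusted p = 1.14e-08). All 3 of its probe sets were above background. The nephron transporters that diuretics act on were not. Slc12a1, the furosemide-sensitive NKCC2 of the thick ascending limb, had 5.85 to 6.62, and Slc12a3, the thiazide-sensitive cotransporter of the distal tubule, had 4.63 to 5.86. Neither lay over the threshold in any sample, as was the case for Umod, a marker of the same segments, at 4.37 to 5.90.

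Of the potassium chloride cotransporters, which let chloride out of cells, Slc12a7 (KCC4) had 11.68, 11.88, 13.35 and 12.07 (12.25 ± 0.75; adjusted p = 4.06e-07). It was highest in replicate 3, and the other samples lay within 0.39 log2 units. Slc12a4 (KCC1), found in most cells, had 8.96, 9.11, 8.89 and 9.30 (9.06 ± 0.18; adjusted p = 0.000315) and hardly varied. Slc12a9, a family member, had 8.35, 8.95, 9.42 and 8.89 (adjusted p = 0.000679). Slc12a5, the neuronal KCC2, had 6.58 to 7.86 and was not above background, nor was Slc12a8 at 7.15, 6.87, 8.60 and 6.90, where only replicate 3 passed its threshold.

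The WNK kinases and their partners, which switch sodium-coupled cotransport on and potassium-coupled cotransport off, were above background in 7 of 8 cases. Their share was 87.5%, beside 57.9% of all named genes. Wnk1 had 15.64, 15.78, 15.28 and 15.41 (15.53 ± 0.22; adjusted p = 1.38e-08). Wnk4, best known from the distal nephron, had 11.67, 11.32, 11.65 and 12.08 (11.68 ± 0.31; adjusted p = 2.61e-07). Wnk2 had 9.81, 9.46, 10.94 and 10.43 (10.16 ± 0.66; adjusted p = 1.03e-05). The downstream kinases Stk39 (SPAK) and Oxsr1 (OSR1) had adjusted p values of 8.9e-08 and 1.5e-07, and the exception was Wnk3 at 4.49 to 6.02.

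SLC9 proteins exchange sodium for protons, at the cell surface or in organelles. Those above background were 3 organellar members, Slc9a7, Slc9a8 and Slc9a9, and Slc9a2, an exchanger of epithelial surfaces. Slc9a9, of endosomes, had 9.0, 10.25, 8.83 and 9.56 (9.41 ± 0.64; adjusted p = 0.000584), and Slc9a8, of the Golgi, had 8.13, 7.58, 8.61 and 9.15 (8.37 ± 0.67; adjusted p = 0.0112). Slc9a7, of the trans-Golgi network, had 7.45, 7.10, 10.47 and 11.19 (9.05 ± 2.08; adjusted p = 0.0308). Its samples fell apart, with replicates 3 and 4 about 3 log2 units or more over replicates 1 and 2, which lay just over their thresholds. Slc9a2 had 7.72, 7.74, 9.26 and 8.0 (8.18 ± 0.73; adjusted p = 0.0303).

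The calls of Slc9a2, Slc9a7 and Slc9a8 depended on single samples. The group had 3 genes above background without replicate 2, 2 without replicate 3, 1 without replicate 4 and 1 at the 99th percentile. Slc9a2 had an adjusted p of 0.0603, 0.12 and 0.0554 without replicates 2, 3 and 4. Slc9a7 had 0.0956 and 0.138 without replicates 3 and 4, and Slc9a8 had 0.0626 without replicate 4. The other surface exchangers did not pass. Slc9a3, the sodium absorbing exchanger of gut and proximal tubule, had 9.41, 6.43, 6.68 and 7.27, with only replicate 1 over its threshold. Slc9a4, known from stomach, had 5.70, 4.34, 7.37 and 5.84. Slc9a5, known from brain, had 7.35 to 8.45, over the threshold in all samples, with an adjusted p of 0.0688.

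Proteins that anchor or regulate exchangers were above background in 5 of 6 cases (83.3%), beside 57.9% of all named genes. Slc9a3r1, the scaffold NHERF1, had 14.53, 14.54, 14.72 and 14.21 (14.50 ± 0.21; adjusted p = 1.47e-08), and its relative Slc9a3r2 had 10.65, 10.45, 10.32 and 10.48 (10.48 ± 0.14; adjusted p = 3.35e-06). Pdzk1, a scaffold of proximal tubule and gut, had 7.74, 5.18, 9.76 and 6.63 and was not above background (adjusted p = 0.941).

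The SLC4 family moves bicarbonate. Slc4a4, the sodium bicarbonate cotransporter NBCe1, had 12.95, 11.58, 11.68 and 12.01 (12.05 ± 0.62; adjusted p = 8.58e-07), highest in replicate 1. Slc4a2, the anion exchanger AE2 found in most epithelia, had 9.61, 10.05, 10.29 and 10.60 (10.14 ± 0.42; adjusted p = 9.39e-06). Slc4a9, known as AE4 and from a class of intercalated cells, had 8.68, 7.83, 9.43 and 9.64 (8.89 ± 0.82; adjusted p = 0.00147). Slc4a11 had 8.20, 7.45, 9.02 and 8.98 (8.41 ± 0.75; adjusted p = 0.00933), a call lost at the 99th percentile (0.0998). Slc4a4, Slc4a9 and Slc4a11 were lowest in replicate 2.

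Slc4a1, the band 3 anion exchanger of red cells and of acid-secreting intercalated cells, had 8.29, 8.14, 9.86 and 5.59 (7.97 ± 1.77). The gene was over the threshold in replicates 1 to 3 and far below it in replicate 4, and was not above background over all 4 samples (adjusted p = 0.321), though it was without replicate 4 (0.00946). Of 4 measured red cell markers, Hbb-b2 and Alas2 lay over the threshold in every sample and the other 2 in none. The list summed to 1216, 437, 1515 and 1126, lowest in replicate 2. Slc4a1 was lowest in replicate 4, and the part of red cells in its level was not tested. Slc4a3, the anion exchanger of heart and brain, had 8.73, 7.82, 7.36 and 8.78. It missed the call (adjusted p = 0.0525) and passed without replicate 3 (0.00741). Slc4a5, Slc4a8 and Slc4a10, sodium-coupled members, were not above background either. In Slc4a5 replicate 3 had 6.64 and the others 4.31 to 4.42, all below the threshold.

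Carbonic anhydrases, which make bicarbonate and protons from carbon dioxide, were above background in 7 of 13 cases. Their share was 53.8%, beside 57.9% of all named genes. Car2, the main cytosolic form, had 13.13, 13.23, 13.39 and 13.96 (13.43 ± 0.37; adjusted p = 4.17e-08), and Car12, a membrane form, had 9.90, 11.14, 11.58 and 10.70 (10.83 ± 0.72; adjusted p = 7.18e-06). Car4, another membrane form, had 6.22 to 7.08 and was not above background. Among all 13, Car3 and Car6 spanned the widest ranges between samples. Car3, of skeletal muscle, fat and liver, had 13.78, 7.52, 16.18 and 6.59, high in replicates 1 and 3. Summed liver markers were 43230, 384, 11670 and 475 in replicates 1 to 4, and those of skeletal muscle 399, 534, 200126 and 360. Those of fat cells were 180, 242, 31454 and 360, with 2 of 3 measured markers over the threshold in replicate 3. The part of these tissues in the level of Car3 was not tested. Car6, the secreted form of saliva and tears, had 5.95, 13.29, 15.28 and 15.35. Both were named after their values were seen.

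SLC26 proteins exchange chloride, bicarbonate, sulfate and iodide, and 2 of the 10 measured were above background. Slc26a2, the sulfate transporter needed for proteoglycans, had 12.02, 12.26, 13.38 and 12.65 (12.58 ± 0.60; adjusted p = 1.34e-07). Slc26a4 (pendrin), the chloride bicarbonate exchanger of intercalated cells, thyroid and inner ear, had 9.85, 9.71, 11.52 and 10.39 (10.37 ± 0.82; adjusted p = 1.37e-05). Both were highest in replicate 3. The call of Slc26a4 held without each replicate in turn and was lost with a background of 3 median absolute deviations over the receptors' median (0.0521).

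Of the 8 SLC26 genes not above background, Slc26a7, an exchanger of intercalated cells and stomach, had 9.47, 7.83, 5.44 and 9.70 (8.11 ± 1.96). It was over the threshold in all samples but replicate 3, and passed without that sample (adjusted p = 0.00216 against 0.303). Its order was thus unlike that of Slc26a4, which was highest in replicate 3. Slc26a6, an exchanger of gut, pancreas and kidney, had 8.53, 5.56, 6.75 and 7.94, over the threshold in replicates 1 and 4. Slc26a11 had 6.58 to 7.75. The remaining 5 genes, Slc26a1, Slc26a3, Slc26a5, Slc26a8 and Slc26a10, lay over the threshold in no sample by their brightest probe sets, while a dimmer probe set of Slc26a3 did in replicate 1 (7.58) and of Slc26a8 in replicate 3 (7.84). They include Slc26a3, the chloride absorbing exchanger of the colon, and Slc26a5, the motor protein of outer hair cells.

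**Figure D2:**
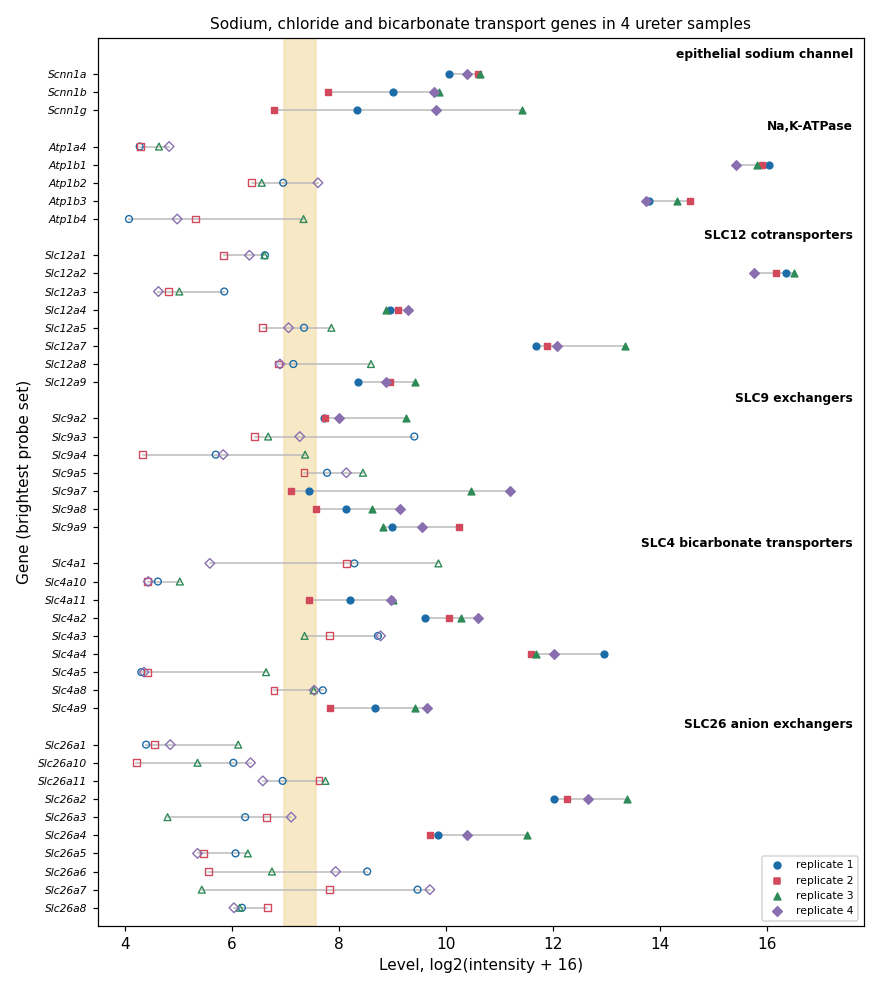
Level, log2(intensity + 16), of the brightest probe set of each sodium, chloride and bicarbonate transport gene in replicates 1 to 4 (coloured symbols, filled where the gene is above background); grey lines join the lowest and highest sample and the band spans the 4 arrays' thresholds, 6.98 to 7.57. Scnn1g, Slc9a7, Slc4a1 and Slc26a7 spread over more than 4 log2 units, while Scnn1a, Atp1b1 and Slc12a4 lie close together.

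The V-ATPase consists of a cytosolic V1 domain that splits ATP and a membrane V0 domain that passes protons. The ureter expressed all measured subunits counted here as broad and 2 of those counted as tissue-restricted. All 14 subunits counted as broad were above background. Their brightest probe sets lay over the threshold in every sample, as did those of 58.4% of all named genes. Of the 6 restricted isoforms 2 passed. The parting of isoforms was made by hand with these values known. It counts Atp6v0e2, a second e isoform, as broad, and the counts of both classes depend on where it is put.

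In the V1 domain, Atp6v1a, the catalytic subunit, had 13.66, 13.83, 13.29 and 13.77 (13.64 ± 0.24; adjusted p = 5.15e-08). The stalk subunits Atp6v1d, Atp6v1e1 and Atp6v1g1 had 14.32, 14.09, 14.34 and 14.18, then 14.85, 14.47, 14.80 and 14.08, and 14.67, 14.40, 14.41 and 14.19 in replicates 1 to 4. Their adjusted p values were 1.37e-08, 1.91e-08 and 1.74e-08. Atp6v1f was the steadiest of the 69 genes, with 11.83, 11.87, 11.82 and 11.98 (11.88 ± 0.07). Atp6v1b2, Atp6v1c1 and Atp6v1h, the broad B, C and H subunits, had SDs of 0.36, 0.27 and 0.39.

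In the V0 domain, Atp6v0d1, which links the domains, had 12.91, 12.44, 13.09 and 13.16 (12.90 ± 0.32; adjusted p = 4.08e-08), and Atp6v0e had 14.28, 14.51, 14.74 and 14.41 (14.49 ± 0.19; adjusted p = 1.28e-08). Their promoter windows, printed above, both hold the longer palindrome. The large a subunit sets where the pump sits in the cell. Its isoforms Atp6v0a1 and Atp6v0a2 were above background, with 8.18 to 9.16 and 9.99 to 11.34 (adjusted p = 0.00262 and 4.58e-06), and Atp6v0a4, the form of the kidney and epididymis, was not, with 4.76, 5.32, 5.92 and 5.12. Tcirg1, the a3 isoform of osteoclasts and lysosomes, had 10.39, 10.29, 10.34 and 10.16 (10.30 ± 0.10; adjusted p = 4.25e-06). Atp6v0b and Atp6v0e2 had 10.87 to 11.91 and 9.87 to 11.31.

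Of the restricted isoforms, Atp6v1b1, the B subunit of intercalated cells, had 5.34, 4.50, 7.37 and 8.22 (6.36 ± 1.73). Only replicate 4 lay over its threshold, and the gene was not above background. Atp6v0d2, known from osteoclasts, macrophages and renal epithelium, was above background with 8.99, 8.25, 8.97 and 9.94 (9.04 ± 0.70; adjusted p = 0.000793), and Atp6v1c2, known from kidney and lung, with 8.78, 8.44, 10.64 and 8.87 (9.18 ± 0.99; adjusted p = 0.00096). Atp6v1e2 of testis had 6.82 to 8.14 and Atp6v1g2 of neurons 6.33 to 7.79, neither above background.

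The genes known from intercalated cells did not come together. Slc26a4, Slc4a9 and Atp6v0d2 were above background, while Foxi1, the transcription factor of these cells, had 6.79, 5.91, 4.34 and 7.01, below the threshold in every sample. Rhcg, their ammonia channel, had 4.57 to 5.34 and was also below it throughout. Rhbg, a related ammonia channel, was above background with 10.71, 11.30, 8.68 and 10.70 (10.35 ± 1.15; adjusted p = 0.000381), lowest in replicate 3. Of the 6 genes listed for ammonia and other proton transport it was the exception, and Atp12a, the non-gastric proton pump that exchanges potassium, was not above background at 8.17, 5.86, 9.02 and 8.30 (adjusted p = 0.286).

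Proteins that assemble or accompany the proton pump were above background in 9 of 11 cases (81.8%), beside 57.9% of all named genes. Atp6ap1 had 13.92, 14.30, 14.09 and 13.95 (14.06 ± 0.17; adjusted p = 2.43e-08), and Atp6ap2, the prorenin receptor, had 15.71, 15.80, 15.31 and 15.46 (15.57 ± 0.22; adjusted p = 1.36e-08). Dmxl1 at 6.71 to 7.38 and Tmem9 at 7.41 to 9.49 were not above background.

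CLC proteins fall into plasma membrane chloride channels and intracellular exchangers, and only the latter were above background. All 5 exchangers passed. Clcn3, of endosomes and synaptic vesicles, had 13.75, 12.64, 15.60 and 14.30 (14.07 ± 1.23; adjusted p = 2.45e-08 for its best probe set). Clcn4 had 13.16, 13.02, 13.35 and 13.21 (13.19 ± 0.13; adjusted p = 2.83e-08) and was steady by this probe set. Its other probe set, also above background, was not, with 9.37, 9.34, 11.23 and 10.5. Clcn5, the endosomal exchanger whose loss causes Dent disease, had 11.90, 11.77, 13.46 and 11.92 (12.26 ± 0.80; adjusted p = 4.86e-07), with replicate 3 above the rest.

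Clcn6, of late endosomes, had 9.16, 10.12, 9.34 and 9.92 (9.64 ± 0.46; adjusted p = 0.000114). Clcn7, the lysosomal exchanger, had 10.35, 10.79, 10.14 and 10.67 (10.49 ± 0.30; adjusted p = 6.74e-06), and its partner Ostm1 had 13.65, 13.56, 13.36 and 13.13 (13.43 ± 0.23; adjusted p = 5.18e-08). By these probe sets Clcn7 and Clcn6 were lower in replicate 3 than in replicates 2 and 4, but the other Clcn7 probe set above background, with 8.08, 7.74, 9.12 and 9.05, was highest in replicate 3. The channels Clcn1, of skeletal muscle, and Clcn2, of many epithelia, had 4.47 to 5.75 and 5.20 to 6.39 and lay below the threshold in every sample. Clcn1 was below it also in replicate 3, where the skeletal muscle marker Myh4 had 16.39.

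**Figure D3:**
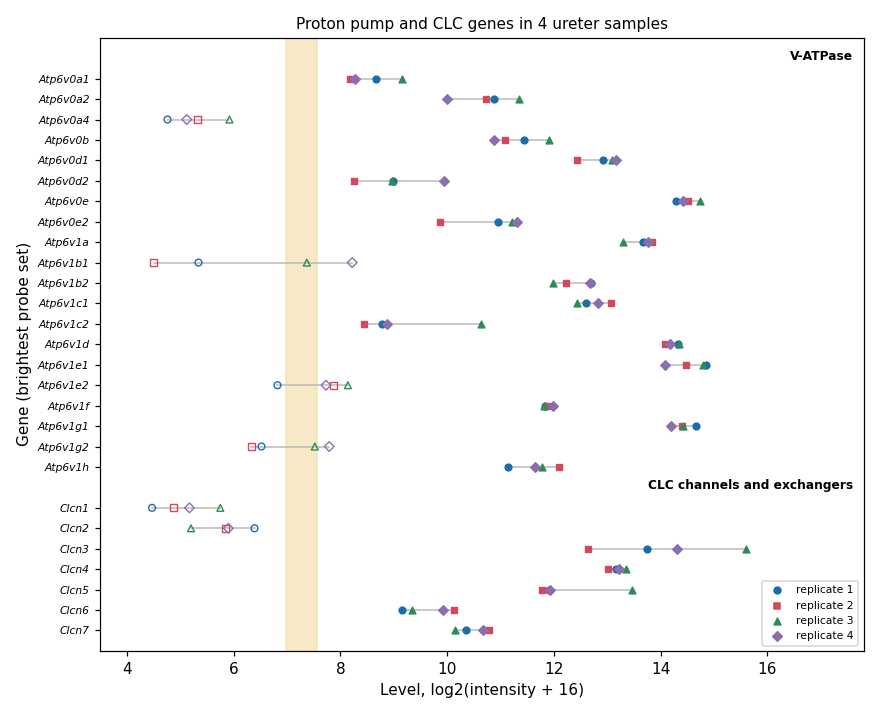
Level, log2(intensity + 16), of the brightest probe set of each V-ATPase and CLC gene in replicates 1 to 4 (coloured symbols, filled where the gene is above background); the band spans the 4 arrays' thresholds, 6.98 to 7.57. Broadly expressed V-ATPase subunits such as Atp6v1d and Atp6v1f lie tightly together, and Clcn3, Atp6v1c2 and Atp6v1b1 spread out.

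Other chloride channels were above background in 7 of 11 cases. Cftr, the cyclic AMP gated channel of secretory epithelia, had 7.61, 5.54, 8.41 and 8.21 and was not above background (adjusted p = 0.751), with replicate 2 below its threshold. Ano1, the calcium gated chloride channel of secretory cells and of pacemaker cells, had 16.23, 15.89, 15.97 and 15.68 (15.94 ± 0.23; adjusted p = 1.14e-08). The volume-regulated channel subunits Lrrc8a, Lrrc8c, Lrrc8d and Lrrc8e were all above background. Bsnd, the partner of the kidney CLC channels, had 7.21 to 8.38 and was not (adjusted p = 0.19). Over all 8 lists of regulators and partners, 49 of 72 measured genes were above background (68.1%), beside 57.9% of all named genes. The lists ran on both sides of that share, with FXYD proteins at 57.1%, carbonic anhydrases at 53.8% and the ammonia and proton transport list at 16.7%.

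The test of spread between samples could not part the transport genes, because it called no probe set above background on the array. This test, an F test of the variance over 4 samples against limma's prior variance, called 0 of 67 transport probe sets after Benjamini-Hochberg adjustment. In all it called 0 of 18446 (0.0%). Car6, above background with samples from 5.95 to 15.35, was not called either, so a gene that fails this test need not be steady. At an unadjusted p under 0.05 it marked 4 of 67 and 722 of 18446. Orders of samples are therefore descriptions. In 7 of 69 genes the samples lay 3 or more log2 units apart, beside 7.19% of all named genes. These were Scnn1g, Atp1b4, Slc9a4, Slc9a7, Slc4a1, Slc26a7 and Atp6v1b1, of which Scnn1g and Slc9a7 were above background. By the brightest probe sets, the median SD was 0.338 over the 14 broad V-ATPase subunits and 0.631 over the 24 genes above background outside the V-ATPase. It was 0.408 over all named genes above background. Other probe sets of these subunits can vary more or less: the ranges of those above background ran from 0.76 to 2.6 log2 units in Atp6v1e1 and from 0.51 to 1.04 in Atp6v0b.

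As a set the transport genes above background tended to be highest in replicate 3 and lowest in replicate 2. Of these 40 genes 5, 7, 19 and 9 were highest in replicates 1 to 4, beside 23.0%, 25.3%, 27.6% and 24.1% of all named genes above background. They were lowest in 9, 17, 7 and 7 cases, beside 19.4%, 23.6%, 34.3% and 22.7%. Outside the V-ATPase 13 of 24 were highest in replicate 3 and 11 lowest in replicate 2. The 49 regulators and partners above background ran otherwise, with 10 highest and 20 lowest in replicate 3. The median deviation of the 40 genes from the mean of the other 3 samples was -0.23, -0.22, 0.33 and 0.07 in replicates 1 to 4, beside 0.03, 0.03, -0.05 and 0.05 over all named genes above background. By group, over genes above background, the medians in replicate 3 were 1.31 for SLC26, 1.01 for the sodium channel, 0.88 for SLC9, 0.54 for SLC12, 0.46 for SLC4, 0.21 for CLC and 0.15 for the Na,K-ATPase. Within the V-ATPase they were 0.50 for V0 subunits and -0.01 for V1 subunits. Part of this pattern depends on the scaling. After quantile normalization 16 of 40 genes were highest in replicate 3, beside 25.6% of all named genes above background, and 16 lowest in replicate 2, beside 20.1%. Over all measured genes of a group, it took the replicate 3 median from 0.69 to 0.23 for SLC9, from 0.54 to 0.16 for SLC12 and from 0.54 to 0.24 for SLC4. It turned that of SLC26 from 0.27 to -0.20 and that of the Na,K-ATPase from 0.17 to -0.02. Other values also set these samples apart. Summed urothelium, skeletal muscle, exocrine and fat cell markers were highest in replicate 3, and fibroblast and endothelial markers lowest there. The Actb ratio was highest in replicate 2, with Gapdh ratios of replicates 1 to 3 close together. Summed fibroblast markers were 111856, 98258, 19474 and 75928, with 5 of 5 over the threshold in every sample. Their part in the deviations was not tested.

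**Figure D4:**
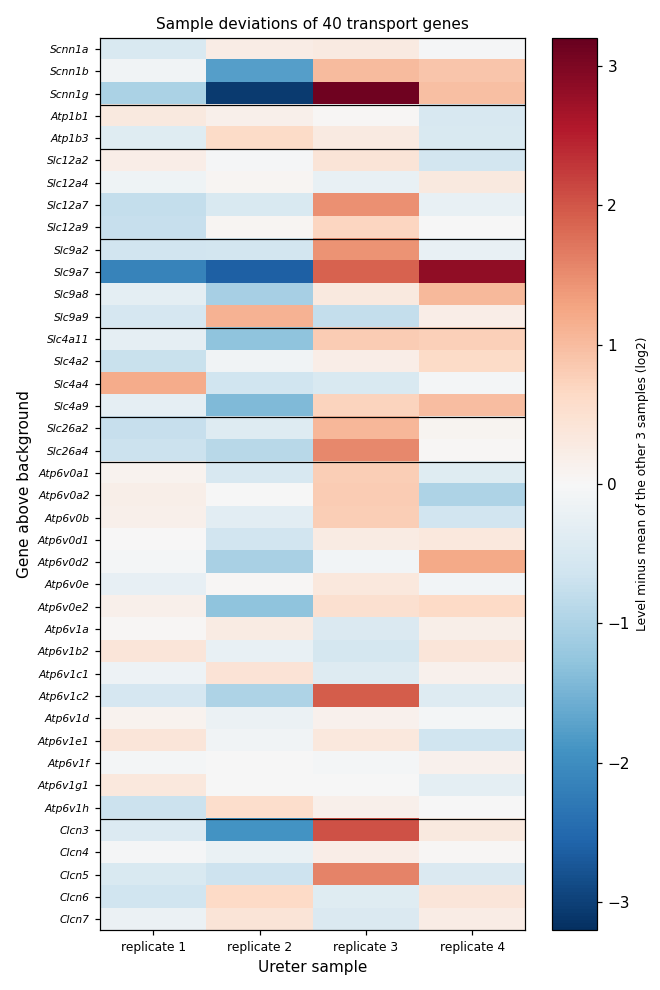
Level of each of the 40 transport genes above background in a sample minus the mean of the other 3 samples (colour, log2 units), with rows parted by role group. Replicate 3 is above the others in 29 of 40 genes and replicates 1 and 2 in 13 and 12; outside the V-ATPase replicate 1 is above in 3 of 24 genes and replicate 2 in 8, with Scnn1g and Slc9a7 showing the deepest colours.

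Probe sets of the same gene did not always tell the same story. Among the 39 transport genes covered by several probe sets, 18 had some above background and some not, beside 4652 of 9010 named genes. Of 17 genes with 2 or more probe sets above background, 7 were highest in the same sample by each of them and 10 were not. The brightest Clcn3 probe set spanned 12.64 in replicate 2 to 15.60 in replicate 3 and the fourth 7.94 to 11.95, while the next brightest gave 13.26, 13.30, 13.54 and 13.51. The 3 Clcn5 probe sets above background were all highest in replicate 3, by 1.26 to 2.33 log2 units over the lowest sample.

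For Slc12a2 the brightest probe set varied by 0.73 log2 units and the dimmest by 3.62, with 8.91 in replicate 2 and 12.52 in replicate 3. In Slc4a4 2 of the 3 probe sets not called were low in replicate 2, at 5.10 and 5.46 against 8.88 to 10.62 in the other samples, while the brightest had 11.58 there. Slc12a2 and Slc4a4 thus had a low replicate 2 in some dimmer probe sets, and that array had the highest Actb 3' to 5' ratio, though not a Gapdh ratio apart from those of replicates 1 and 3. Whether RNA integrity bears on these probe sets was not tested.

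**Figure D5:**
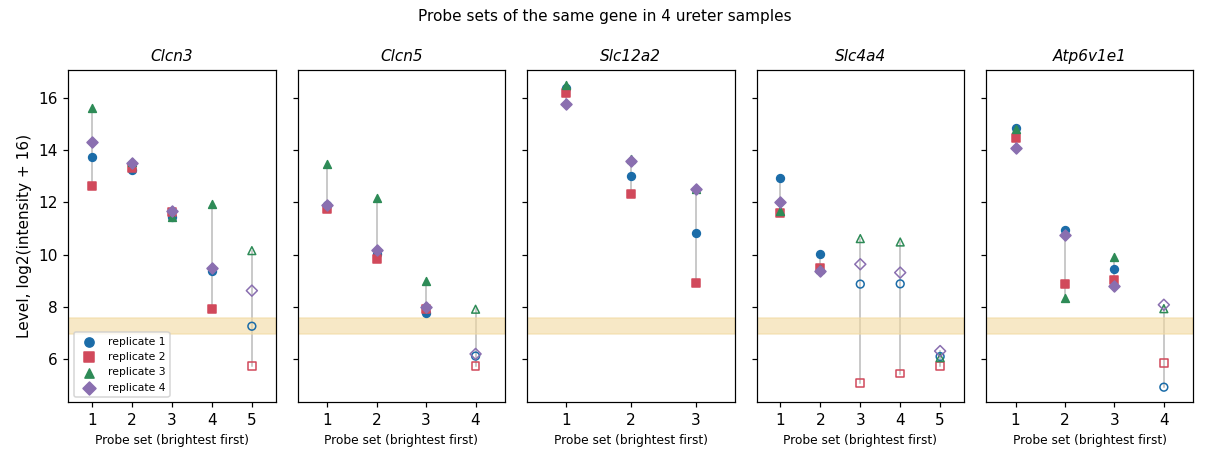
Level, log2(intensity + 16), of every probe set of 5 genes in replicates 1 to 4 (coloured symbols, filled where the probe set is above background), ordered from the brightest; the band spans the arrays' thresholds. Clcn5 probe sets share a high replicate 3, while Clcn3 probe sets part into 2 that hardly vary and 3 that spread widely.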

How the data were processed

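Whole-genome expression was measured on 4 Affymetrix arrays, 1 per unpooled ureter sample, after 2 rounds of amplification, per the labels' protocols. The deposited values are linear intensities, 1 for each probe set on an array. The submitters' processing notes name GCOS, and the version is not given in the sources used here. After 2% of probe sets were trimmed at each end, the mean was 1500 on every array, so values had been scaled per array, and they were used as deposited. The depth of an array is not a count, and the number of arrays limits the precision.

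The 64 control probe sets were left out. Genes were named from probe sets with 1 symbol (34945; 932 had several and 9160 none). Gene identifiers of 34741 were found in RefSeq (GRCm38.p6), which changed 0 symbols. Levels were log2(intensity + 16), which compresses differences among dim probe sets. The background came from 82 chemosensory receptor probe sets, of which 0 were called. Tests used limma 3.58.1 in R 4.3.3 with trended, robust priors, and the spread test had 3 and 4.77 degrees of freedom. The code was tested on simulated data.

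Every transport gene is accounted for. Values in every sample are given for the sodium channel and pump genes, up to 6 genes with the lowest adjusted p per other group, and genes whose samples lie 3 log2 units apart, with some further genes. Of the lists of regulators and markers up to the first 3 measured genes were to be named, and others were chosen after their values were seen. Of 75 regulators 72 were measured. The members and lists were chosen with earlier results of these data known. Alternatives covered the pseudocount, quantile normalization, the background, the test, the handling of probe sets, the filter and each replicate.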

Additional observations from a re-analysis of the deposited data

Results flagged for a closer look

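In 3 of the 69 transport genes a sample stood apart from the other 3, by a gap that made up most of the range of the gene's 4 levels (Dixon's criterion at 95%). Chance flags about 1 in 20 groups of samples, so 3 of 69 is not many. In each case replicate 3 was the high sample. Clcn5 had 13.46 there against 11.77 to 11.92. Slc12a8 had 8.60 against 6.87 to 7.15. Slc4a5 had 6.64 against 4.31 to 4.42, with all samples below background. In Clcn5 the other probe sets above background were highest in replicate 3 as well.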

How the results depend on the processing

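Of the 40 transport genes above background, 24 kept the call under every alternative and 35 under every alternative but the highest background. Calls of 25 of the other 29 genes were not gained under any. Pseudocounts of 1 and 64, quantile normalization and the call of the brightest probe set changed 0 of 69 calls. Without probe sets that can match several genes, Atp6v0b was not measured and the other 68 genes kept their calls. A background of 3 median absolute deviations over the receptors' median lay higher than the 95th percentile on every array. It left 24 transport genes, with 1 sodium channel gene, 2 SLC12, 0 SLC9, 1 SLC4 and 1 SLC26 gene and 0 restricted V-ATPase isoforms, against 13 of 14 broad subunits and 7025 named genes. Under it 2 transport genes passed the spread test. In this setting the prior of that test had infinite degrees of freedom, against 4.77 in the main setting. Its calls are thus not comparable with those of the main setting, and the part of the prior in them was not tested. At the 99th percentile 35 transport genes and 1 SLC9 gene passed.

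Leaving out a replicate gave 37 to 40 transport genes, 1 to 4 SLC9, 2 to 3 sodium channel, 4 to 5 SLC4, 2 to 3 SLC26 and 14 broad V-ATPase genes. Over genes above background only, the median deviation of the Na,K-ATPase in replicate 2 was 0.39, from 2 genes, and that of the SLC26 genes in replicate 3 was 1.31, also from 2 genes. The other 62 of 64 recomputed medians moved by less than the group's median SD, a wide allowance: quantile normalization turned the sign of the replicate 3 medians of SLC26 (-0.20) and the Na,K-ATPase (-0.02) and lowered those of SLC9, SLC12 and SLC4 over 1.5 times. The counts of genes highest or lowest in each replicate, an alternative chosen after seeing the data, moved by at most 3 under it. Signal near background limits what can be said of the dim genes. No paired analysis was possible because all samples belong to 1 group.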
